A study of Mus musculus with 4 samples.

Results

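The developmental transcription factors of the Fox, Sox, Gata, Tbx, Pax, Klf, Ets, Lhx and Nkx families and of the sine oculis homeobox family (Six2 to Six6) were examined in the seminal vesicle of the mouse. They were taken as every probe set whose platform annotation gives a single gene symbol of these families, with the Elf genes and Ehf counted to the Ets family. This gave 131 of 12422 probe sets, which read 95 of 8251 genes. The glands came from 4 C57Bl/6J males aged 15 months, all wild type, and were snap frozen after harvest. Total RNA of each was hybridised to 1 Affymetrix Mu74AV2 array. The 4 mice form a single group, and no second genotype, age or tissue was available to set against it. Litter and batch are not in the labels, and the numbers 1 to 4 given to the mice only name them.

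These proteins bind DNA through a domain shared within each family, among them the forkhead domain of the Fox factors, the HMG box of the Sox factors and the zinc fingers of the Gata and Klf factors. The seminal vesicle grows from the Wolffian duct under androgen, and Pax2, Pax8, Lhx1 and Gata3 are known for their part in forming that duct. In glandular epithelium, Foxa1 and Gata2 are known as partners of the androgen receptor, and Elf3, Elf5 and Ehf as Ets factors of epithelial cells. In bulk tissue, fewer cells of a type and less RNA per cell cannot be told apart.

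The arrays carried the profile of the labelled tissue. Of 7 measured genes of seminal vesicle secretion, 6 exceeded the background range defined below in every mouse, among them Svs4 and Svs5. Of 11 luminal epithelial genes 7 did, of 9 smooth muscle genes 8 and of 9 fibroblast genes 5. Basal epithelial genes did so in 0 of 7 cases, Schwann cell and nerve genes in 0 of 5, skeletal muscle genes in 1 of 9, adipocyte genes in 1 of 5, prostate genes in 1 of 5, endothelial genes in 2 of 9 and leukocyte genes in 2 of 13. Mouse 1 stood apart by 1 prostate gene, Pbsn (probasin, a secreted protein of the prostate), which had 6.57 in mouse 1 and 3.02, 3.18 and 3.47 in mice 2 to 4 (SD 1.68, adjusted p = 0.0015 by limma's variance test described further on). It was over the array limit in mouse 1 alone, and it was the only gene of the marker lists that this test called. The 5 prostate probe sets had mean deviations from their 4-mouse means of 0.51, -0.37, -0.08 and -0.05 in mice 1 to 4, and the other 4, Psca, Hoxb13, Msmb and Tmprss2, were not highest in mouse 1. Pearson's r over all probe sets, which are not independent, ran from 0.992 to 0.994 for pairs of arrays, and at most 1 probe set had the same value to the last digit on both.

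The question put to these values was which of the factors gave signal in the gland. Signal was read against a limit on each array. The limit was the 90th percentile of 113 probe sets that read 86 genes typical of other organs. It came to 6.36, 6.17, 6.34 and 6.41 in mice 1 to 4 on the log2 scale of the values. A probe set over it on all 4 arrays is called above the background range. A value under it is no evidence that a gene was silent, since probe sets of 1 gene can read very differently.

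Most of the factors were not above the background range. They numbered 15 of 131 probe sets, or 11.5%, against 20.4% of all probe sets. These read 15 of 95 genes, or 15.8%, against 24.9% of all genes. Of the genes of other organs that set the limit, 11 of 86, or 12.8%, were above the range as well. Being above the range therefore does not by itself show that a gene was expressed. The 15 genes were Gata2, Gata3, Elf3, Elf5, Foxd2, Foxh1, Foxm1, Foxo4, Klf6, Klf9, Sox4, Sox13, Tbx2, Tbx3 and Six2. Without mouse 1 the number was also 15 genes, but leaving out a mouse can only add to it. On 0 arrays stood 110 probe sets over the limit, on 1 array 3 and on 2 arrays 3.

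**Figure D1:**
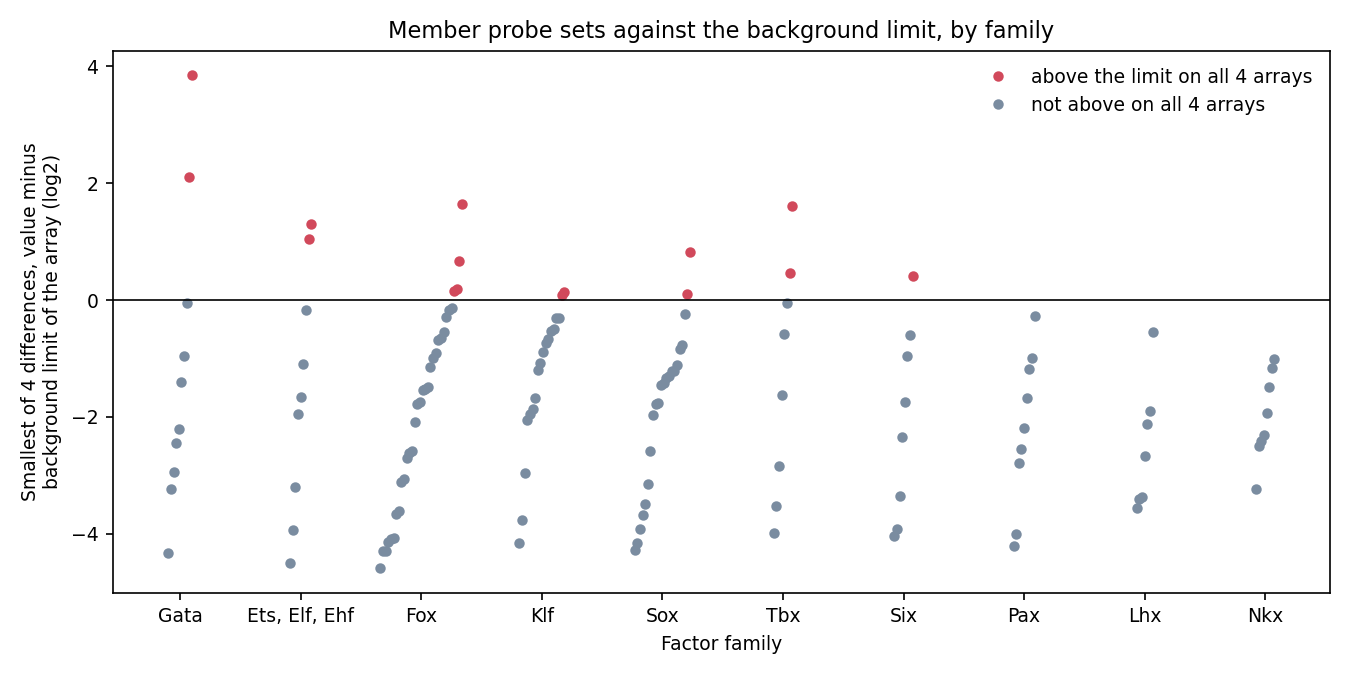
Each point is 1 of the 131 probe sets, placed by family, and the vertical axis gives the smallest of its 4 differences from the array limits (log2). The 15 red points lie above 0, with Gata2 at 3.85 and Gata3 at 2.11, while the Pax, Lhx and Nkx families have no point above 0. Heights of different probe sets are not comparable as expression levels.

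Among the Gata factors, zinc finger proteins that bind the letters GATA, Gata2 and Gata3 were above the range. Gata2, known in blood progenitors and urogenital tissue, had log2 values of 10.37, 10.07, 10.19 and 10.41 in mice 1 to 4 (10.26 ± 0.16, SD, n = 4). It stood at least 3.85 over the limit on every array, the largest such margin of the 131 probe sets, and a second Gata2 probe set was not above, at 3.26 ± 0.18. Gata3 had 8.47, 9.09, 8.98 and 8.60 (8.78 ± 0.30, SD, n = 4), higher in mice 2 and 3 than in mice 1 and 4.

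The other 4 Gata genes were not above the range. Gata4, a factor of heart and gonad, came closest at 6.32, 6.19, 6.38 and 6.37, over the limit in mice 2 and 3 and under it in mice 1 and 4 by at most 0.05. Gata1, which drives red blood cell formation, had 5.54 ± 0.10 and 5.0 ± 0.07 in its 2 probe sets (SD, n = 4). Gata5 had 3.66 ± 0.22, and the 3 probe sets of Gata6 had means of 4.29, 4.02 and 2.22.

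The promoters of Gata2 and Gata3 are shown because these genes gave the widest margins. RefSeq promoter windows (GRCm38.p6, 250 bases before and 50 after a start) were found for 66 of the 95 genes. The windows were searched on both strands for letters known from the binding sites of these families. Gata factors were represented by AGATAA and Ets factors by CCGGAA. Forkhead factors were represented by TGTTTAC and Sox factors by AACAAT. The GC box, read by Klf and Sp factors, was searched as GGGCGG and the T-box site as AGGTGTGA. For LIM homeobox factors the letters were TAATTA and for Nkx2 factors CAAGTG. The TATA box was searched as TATAAA. None of the 9 motifs contains another. The 250 bases before the start are printed 5′ to 3′, with matches in capitals. The Gata2 window is chr6:88193641-88193890 on the plus strand and the Gata3 window chr2:9878601-9878850 on the minus strand.
Gata2: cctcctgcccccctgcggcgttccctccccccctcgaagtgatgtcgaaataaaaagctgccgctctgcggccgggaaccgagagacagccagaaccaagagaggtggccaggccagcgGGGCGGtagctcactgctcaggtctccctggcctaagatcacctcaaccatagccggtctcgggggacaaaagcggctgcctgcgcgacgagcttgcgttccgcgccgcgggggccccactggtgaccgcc
Gata3: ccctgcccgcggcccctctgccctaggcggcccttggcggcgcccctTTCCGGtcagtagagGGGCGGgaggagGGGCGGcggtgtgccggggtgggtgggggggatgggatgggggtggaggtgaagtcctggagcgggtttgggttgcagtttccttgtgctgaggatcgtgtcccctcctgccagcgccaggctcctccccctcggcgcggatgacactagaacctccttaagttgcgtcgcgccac

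The Gata2 stretch held 1 GC box and 22 CG dinucleotides, and the Gata3 stretch held 1 ETS match, 2 GC boxes and 19 CG dinucleotides. A further Gata2 window, chr6:88198414-88198663 over the same number of bases, held 2 GC boxes. The capitals mark letters only and do not show that a factor binds there.

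Among the Ets factors, Elf3 and Elf5 were above the range, while Ehf, which is likewise known from epithelial cells, was not. Elf5, which directs alveolar differentiation in the mammary gland, had 7.85, 8.13, 7.65 and 7.92 (7.89 ± 0.20, SD, n = 4). Elf3 had 7.90, 7.67, 7.42 and 7.45 (7.61 ± 0.22, SD, n = 4), with mouse 1, the mouse of high Pbsn, highest. Their smallest margins over the limit were 1.31 and 1.04.

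The third epithelial member was not above the range: Ehf had 4.70, 4.87, 4.73 and 5.05 (4.84 ± 0.16, SD, n = 4). Elf4 came close, at 6.19, 6.03, 6.26 and 6.39, and was under the limit in every mouse. Ets2 had 5.53, 5.33, 5.26 and 5.60. Ets1, known in lymphocytes and endothelium, had means of 4.58 and 2.52 in its 2 probe sets, and Elf1 had 3.32 and 1.91. Of 10 measured Ets genes outside these symbols, 2 were above the range, each with 1 of 2 probe sets. They were Etv4 (6.67 ± 0.11, SD, n = 4) and, narrowly, Spib (6.45 ± 0.09). Spdef, an epithelial Ets gene, had 6.32, 6.47, 6.40 and 6.40 (6.40 ± 0.06) and was not above the range. It was over the limit in 2 of 4 mice and just under it in the others.

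The promoters of Elf3 and Elf5 are shown because they hold fewer CG dinucleotides than those of Gata2 and Gata3. The Elf3 stretch is chr1:135258473-135258722 on the minus strand, and the Elf5 stretches are chr2:103411848-103412097 and chr2:103423818-103424067 on the plus strand.
Elf3: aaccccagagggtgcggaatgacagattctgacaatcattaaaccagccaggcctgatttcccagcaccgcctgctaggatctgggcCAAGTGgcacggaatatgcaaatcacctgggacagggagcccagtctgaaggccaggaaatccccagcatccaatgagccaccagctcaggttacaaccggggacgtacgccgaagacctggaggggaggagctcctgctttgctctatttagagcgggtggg
Elf5 upstream: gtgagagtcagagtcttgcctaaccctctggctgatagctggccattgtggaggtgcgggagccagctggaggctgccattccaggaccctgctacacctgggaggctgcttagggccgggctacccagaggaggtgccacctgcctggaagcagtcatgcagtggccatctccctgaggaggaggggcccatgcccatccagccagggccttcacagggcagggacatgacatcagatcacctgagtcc
Elf5 downstream: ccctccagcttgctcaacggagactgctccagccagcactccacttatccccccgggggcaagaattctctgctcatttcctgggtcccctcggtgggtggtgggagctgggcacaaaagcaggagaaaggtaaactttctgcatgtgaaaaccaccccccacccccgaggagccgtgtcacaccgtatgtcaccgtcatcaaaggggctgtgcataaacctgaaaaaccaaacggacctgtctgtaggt

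The Elf3 stretch held 1 Nkx2 match and 8 CG dinucleotides. The Elf5 stretches held 0 matches to the 9 motifs, with 2 and 8 CG dinucleotides. Over the whole windows of 300 bases, Elf3 had 12 CG dinucleotides and Elf5 had 3 and 10, against 32 and 29 for Gata2 and 22 for Gata3.

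Of 26 measured Fox genes, 4 were above the range. Foxo4, a forkhead factor held out of the nucleus by insulin signalling, had 8.13, 7.93, 8.02 and 8.06 (8.03 ± 0.08, SD, n = 4) and was over the limit in every mouse. Foxm1, a driver of genes for mitosis, had 7.20, 6.94, 7.26 and 7.09 in 1 probe set (7.12 ± 0.14), while its other probe set was not above, at 5.71 ± 0.05. Foxh1, a partner of Smad proteins in Nodal signalling, had 6.76, 6.59, 6.72 and 6.59 (6.67 ± 0.09), and Foxd2 had 6.59, 6.32, 6.52 and 6.64 (6.52 ± 0.14). Both of these were within 0.25 of the limit in at least 1 mouse.

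Foxa1, the forkhead factor that opens chromatin for the androgen receptor in prostate, was not above the range. It had 5.84, 6.13, 5.84 and 5.87 (5.92 ± 0.14, SD, n = 4), under the limit in all mice and higher in mouse 2 than in the others. Foxa2 had 5.44, 5.29, 5.45 and 5.27, and Foxa3 averaged 3.65 ± 0.11. Foxf1, a factor of the mesenchyme around epithelial tubes, had 3.39, 3.17, 3.24 and 3.42, and Foxq1 had 4.96, 4.8, 4.81 and 4.99. None of these exceeded the limit on any array.

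Foxo3, another target of insulin signalling, had 6.27, 6.39, 6.45 and 6.27, over the limit in mice 2 and 3 alone. Foxk1 had 6.20, 6.00, 6.19 and 6.31, under it in every mouse. The remaining genes, Foxb1, Foxb2, Foxc1, Foxc2, Foxd1, Foxd3, Foxd4, Foxf2, Foxj1, Foxk2, Foxl1, Foxn1, Foxn2, Foxn3 and Foxp1, had probe set means between 1.95 and 6.09. Among them Foxj1, the factor of ciliated cells, had 5.72 ± 0.09 and Foxn1, the factor of thymic epithelium, 4.88 ± 0.16 (SD, n = 4 each).

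Of 12 Klf genes, 2 were above the range, both narrowly. Klf6, a widely expressed zinc finger factor, had 6.47, 6.65, 6.44 and 6.51 (6.52 ± 0.09, SD, n = 4). Klf9, which glucocorticoids induce, had 6.49, 6.78, 6.85 and 6.90 in 1 probe set (6.75 ± 0.18). Its other probe set had 4.55, 5.16, 4.88 and 4.46 (4.76 ± 0.32), the largest SD of all 131. The 2 probe sets placed mouse 4 at opposite ends, highest in the brighter and lowest in the dimmer.

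Klf4 and Klf5, both known for differentiation and growth of epithelium, were not above. Klf4 had 5.81, 5.91, 5.61 and 5.94, and a further probe set averaged 2.23 ± 0.03 (SD, n = 4). Klf5 had 5.07, 4.83, 4.88 and 4.74. Klf10 (6.14 ± 0.04), Klf13 (6.21 ± 0.12), Klf2 (6.01 ± 0.12), a factor of endothelium under flow, and Klf3 (5.90 ± 0.07) were not above the range by their brightest probe sets. Those of Klf13 and Klf2 were over the limit in mouse 2 alone, and those of Klf10 and Klf3 in no mouse. Klf1, the red blood cell member, had 5.19 ± 0.09, and Klf7, Klf12 and Klf17 had probe set means from 2.81 to 4.57.

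Of 13 Sox genes, Sox13 and Sox4 were above the range. Sox13, an HMG box factor known from T cells, had 7.35, 7.25, 7.34 and 7.24 (7.29 ± 0.06, SD, n = 4), with less than 0.12 between its highest and lowest mouse. Sox4, known in progenitor cells, had 6.73, 6.32, 6.45 and 6.82 (6.58 ± 0.23), close to the limit in mice 2 and 3, and its other probe set was not above, at 5.09 ± 0.07.

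Sox genes that mark other cells of the tissue wall were not above. Sox10, the Schwann cell factor, had 6.12, 6.14, 6.32 and 6.40 in its brighter probe set, under the limit in every mouse. The endothelial factors Sox17 (5.66 ± 0.07 and 5.26 ± 0.09, SD, n = 4), Sox18 (5.25 ± 0.10 and 4.68 ± 0.03) and Sox7 (5.33 ± 0.04) were also under the limit. Sox1, Sox2, Sox3, Sox5, Sox6, Sox11 and Sox15 had probe set means from 2.12 to 5.22. Sox9 was not analysed here.

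Of 4 Tbx genes, Tbx2 and Tbx3 were above the range. These related T-box repressors are known from limb and mammary development. Tbx2 had 8.44, 8.19, 8.10 and 8.02 in mice 1 to 4 (8.19 ± 0.18, SD, n = 4). Its other probe sets had 6.35, 6.48, 6.47 and 6.36, over the limit in mice 2 and 3, and 3.90, 3.32, 3.75 and 3.60. Tbx3 had 7.31 in mouse 1 and 6.80, 6.85 and 6.88 in mice 2 to 4 (6.96 ± 0.24).

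The Tbx3 probe set and the Tbx2 probe set above the range were highest in mouse 1, and so was the smooth muscle list. This was not particular to the Tbx genes, since Elf3, Foxh1, Foxo4 and Sox13 were also highest in mouse 1. The second Tbx2 probe set was lowest in mouse 1, so the probe sets of this gene place that mouse at opposite ends. All 8 smooth muscle probe sets above the range were highest in mouse 1, with a mean deviation from their 4-mouse means of 0.34, -0.18, -0.04 and -0.11 in mice 1 to 4. The fibroblast probe sets above the range, 6 in number, had 0.11, -0.10, -0.07 and 0.07. Mouse 1 was also the mouse with high Pbsn. The part of these cells, or of prostate tissue, in the Tbx values was not tested. The smallest margins over the limit were 1.61 for Tbx2 and 0.47 for Tbx3. Both came from mouse 4, so leaving out mouse 1 could not change them. Tbx6 had 5.83 ± 0.16 and Tbx15 means of 4.81, 2.95 and 2.50 in its 3 probe sets, none above the range.

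**Figure D2:**
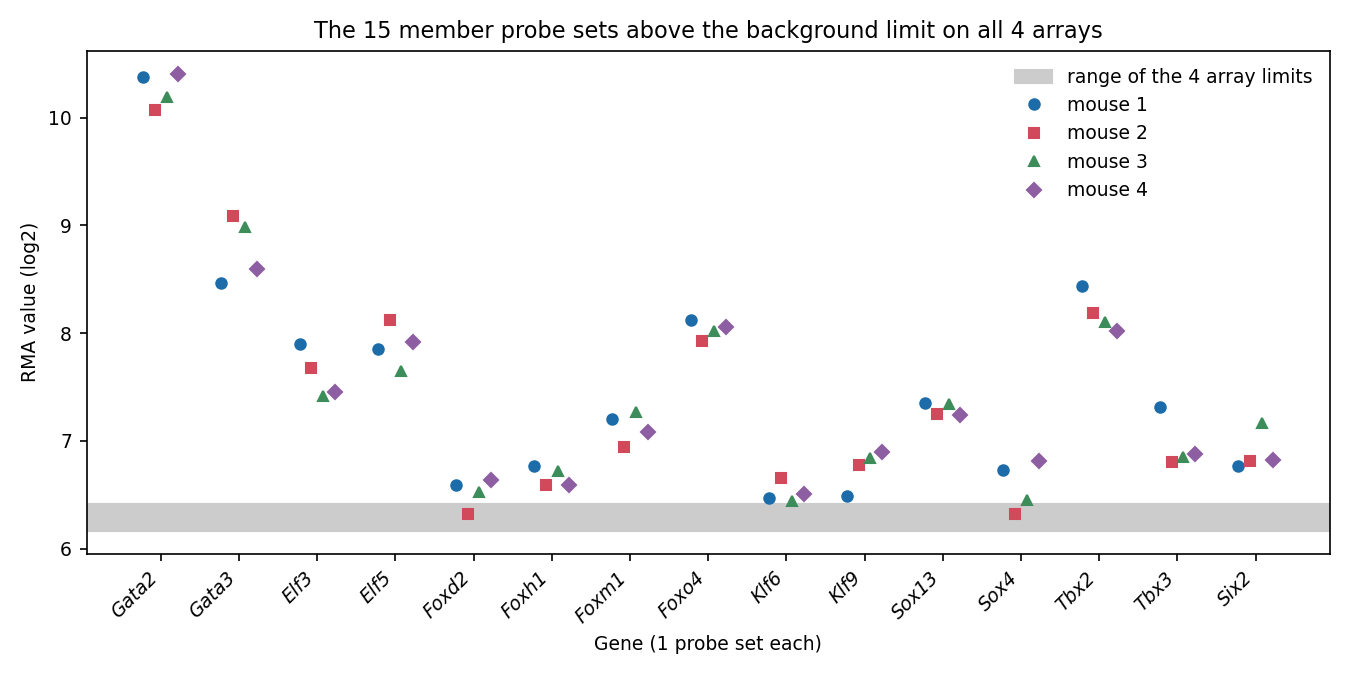
The log2 RMA values of the 15 probe sets above the background range are plotted for each of the 4 mice, grouped by family, over a grey band for the array limits of 6.17 to 6.41. Gata2 lies above 10 in every mouse, while the lowest points of Sox4 and Foxd2, both from mouse 2, fall inside the band, since the limit of that array was 6.17.

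Among the 5 measured genes of the sine oculis homeobox family, Six2 was above the range. Six2, a homeobox factor that keeps nephron progenitors undifferentiated, had 6.77, 6.81 and 6.83 in mice 1, 2 and 4 and 7.17 in mouse 3 (6.90 ± 0.18, SD, n = 4). Six5 had 5.94 ± 0.13, Six4 5.42 ± 0.16 by its brightest probe set, Six6 4.72 ± 0.08 and Six3 4.09 ± 0.10 by its brighter one. Eya proteins are coactivators of this family, and 2 of their 4 genes were above the range, Eya1 by 1 of 2 probe sets (7.01 ± 0.10) and Eya2 (6.70 ± 0.21).

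The Pax, Lhx and Nkx homeobox and paired box families had 0 of 22 genes above the range. The duct-forming factors Pax2, at 5.18, 5.05, 5.24 and 5.26, and Pax8, at 5.04, 4.69, 4.70 and 4.73, stayed under the limit on every array. Lhx1 had 6.04, 5.62, 5.81 and 6.17 (5.91 ± 0.24, SD, n = 4), also under it. Pax4, a factor of pancreatic islets, came nearest at 6.17 ± 0.05 and was over the limit in mouse 2 alone. Pax1, Pax3, Pax5, Pax6 and Pax9 had means from 2.21 to 5.42, and Lhx3, Lhx5, Lhx6, Lhx8 and Lhx9 from 2.94 to 4.51.

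The 8 Nkx genes measured were Nkx1-2, Nkx2-2, Nkx2-3, Nkx2-5, Nkx2-6, Nkx2-9, Nkx3-2 and Nkx6-2, with means from 3.15 to 5.47. Among them Nkx2-5, a factor of the heart, and Nkx2-2, a factor of islets and spinal cord, were over the limit on no array. Nkx3-2, a factor of the embryonic skeleton, had 4.07, 4.0, 3.85 and 4.21 (4.03 ± 0.15, SD, n = 4).

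Cofactors of these families were counted with the same limit, together with Sp1, Sp3 and Sp4, which read the GC box as Klf factors do. Of these 23 measured genes 9 were above the range, or 39.1%, against 24.9% of all genes, and the Sp genes were not among the 9. Beside Eya1 and Eya2 these were Zfpm1, the Gata cofactor also called Fog1 (7.49 ± 0.09, SD, n = 4), Ldb2, which links LIM domain proteins (7.31 ± 0.15), Lmo2, a bridge between Ldb and Gata factors (7.10 ± 0.21 and 6.86 ± 0.24), Ctnnb1, the beta-catenin gene (7.93 ± 0.15), the corepressors Ctbp1 (7.68 ± 0.06) and Tle5 (8.20 ± 0.07), and the coactivator Crebbp (6.65 ± 0.10). The list was not tested against other genes.

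Several members lay close to the limit. Of the 15 above it, 6 had a smallest margin over 1, and 5 were within 0.25 of the limit. The 5 just inside were Klf6, Sox4, Klf9, Foxd2 and Foxh1, with smallest margins of 0.09, 0.10, 0.13, 0.15 and 0.18. The 5 probe sets just outside were those of Gata4, Tbx2 (its second), Foxo3, Foxk1 and Elf4, at -0.05, -0.06, -0.14, -0.17 and -0.17. With the limit raised to the 95th percentile 9 genes remained above, and Klf6, Sox4, Klf9, Foxd2, Foxh1 and Six2 did not. At the 75th percentile 40 of 95 genes were above, against 49.0% of all genes.

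Genes read by several probe sets gave a split answer wherever any of their probe sets was above the range. Of the 30 such member genes 0 were above the range by all of their probe sets, 5 by some and 25 by none. The 5 were Gata2, Foxm1, Klf9, Sox4 and Tbx2, each by 1 probe set. The other genes above the range were read by 1 probe set each.

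Some of the members lie close to each other in the genome. In the RefSeq annotation of GRCm38.p6, 16 pairs of member genes had at most 3 protein-coding genes between them, 10 of them within 1 family, and pairs of 1 cluster are not independent. In 0 pairs both genes were above the range, in 3 pairs 1 gene was and in 13 neither. The 3 were Elf5 beside Ehf, Six2 beside Six3, and Tbx3 with 2 genes between it and Lhx5. Only 15.8% of all member genes were above the range. The counts were not tested and cannot show whether neighbours gave signal together or apart.

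The promoter windows of the members were also compared with those of all genes by their count of CG dinucleotides. The median was 24.5 in 12 windows of 10 genes above the range and 15.5 in 74 windows of 56 genes not above, against 7 in 32851 windows of all genes. A GC box stood in 6 of the 12 windows and in 48 of the 74, against 35.7% of all windows. AGATAA stood in 8.14% of the 86 member windows, against 11.2% of all, CCGGAA in 12.8% against 14.9%, TGTTTAC in 2.33% against 3.65%, and AACAAT in 5.81% against 10.7%. TAATTA stood in 3.49% against 5.29%, CAAGTG in 9.30% against 13.6%, TATAAA in 11.6% against 13.6%, and AGGTGTGA in 0 of 86 against 1.28%. These medians and shares are descriptions without a test. They count windows, so a gene with several windows, such as Sox6, enters more than once.

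A further question was whether any factor varied from mouse to mouse beyond what is usual on these arrays. Each variance over the mice was set against the prior variance of limma's model for probe sets of like signal. By this test 0 of 131 members reached an adjusted p under 0.05, against 0.282% of all probe sets, and the lowest adjusted p was 0.726 (limma, Benjamini-Hochberg). At an unadjusted p under 0.05 stood 2 of 131, or 1.53%, against 5.44% of all. These were the dimmer Klf9 probe set (SD 0.32, adjusted p = 0.726, limma) and Gata3 (SD 0.30, adjusted p = 0.791, limma). The test does not show that the factors were equal in the mice.

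The median SD was 0.10 over the members and 0.11 over all probe sets. Over the 15 members above the range it was 0.18, against 0.11 for all probe sets above the range. A range over 0.5 log2 units was found for 7 of 131 members, or 5.34%, against 8.54% of all probe sets. The 6 members of largest SD were Klf9 (its dimmer probe set), Gata3, Gata6, Tbx2 (its dimmest probe set), Lhx1 and Tbx3. Gata6 had 3.95, 3.72, 4.06 and 4.34 in the probe set concerned (SD 0.26).

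**Figure D3:**
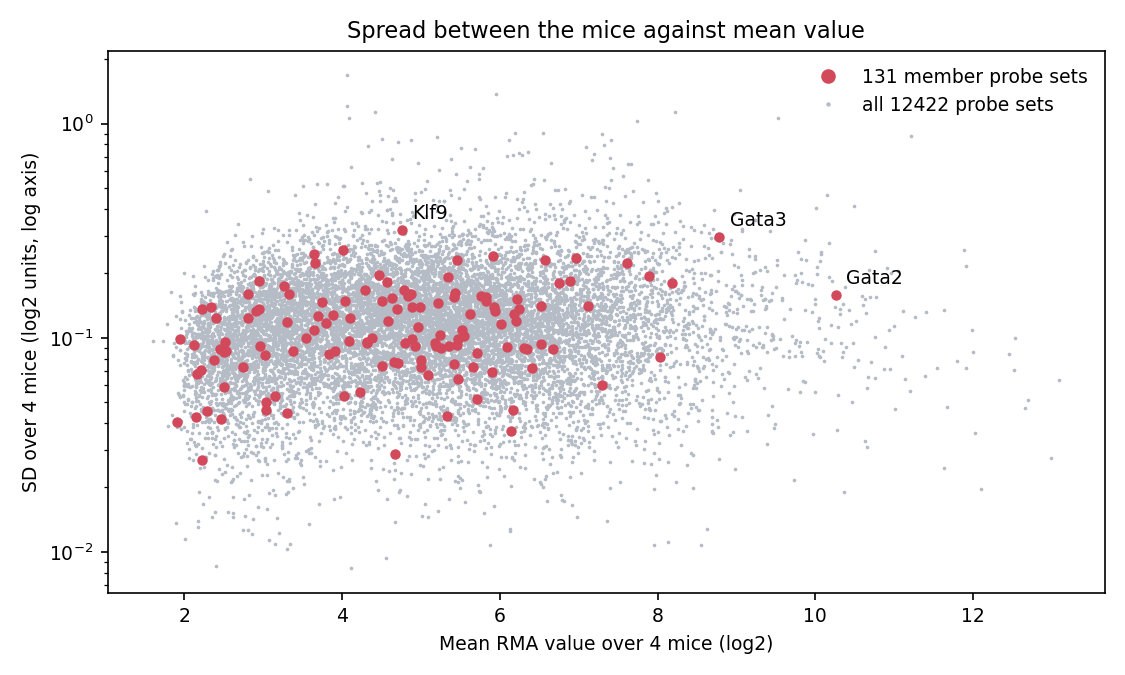
The SD over the 4 mice (log axis) is plotted against the mean log2 value for the 131 member probe sets (red) and all 12422 probe sets (grey). The members lie within the grey cloud, with SDs from 0.03 to 0.32, and the dimmer Klf9 probe set and Gata3 have the largest.

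The members above the range did not follow a common order of the mice. Mouse 1 was highest for 6 of the 15 (Elf3, Foxh1, Foxo4, Sox13, Tbx2 and Tbx3, the mouse in which Pbsn was high), mouse 2 for 3 (Gata3, Elf5 and Klf6), mouse 3 for 2 (Foxm1 and Six2) and mouse 4 for 4 (Gata2, Foxd2, Klf9 and Sox4). Elf5, Gata3 and Klf6 were highest in mouse 2, and so was the luminal list. Over its 7 probe sets above the range, that list had mean deviations of -0.05, 0.15, -0.14 and 0.04 in mice 1 to 4. In Elf5 mouse 3 was lowest, as in that list, and in Gata3 mouse 1 was. The part of epithelial cells in these values was not tested.

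**Figure D4:**
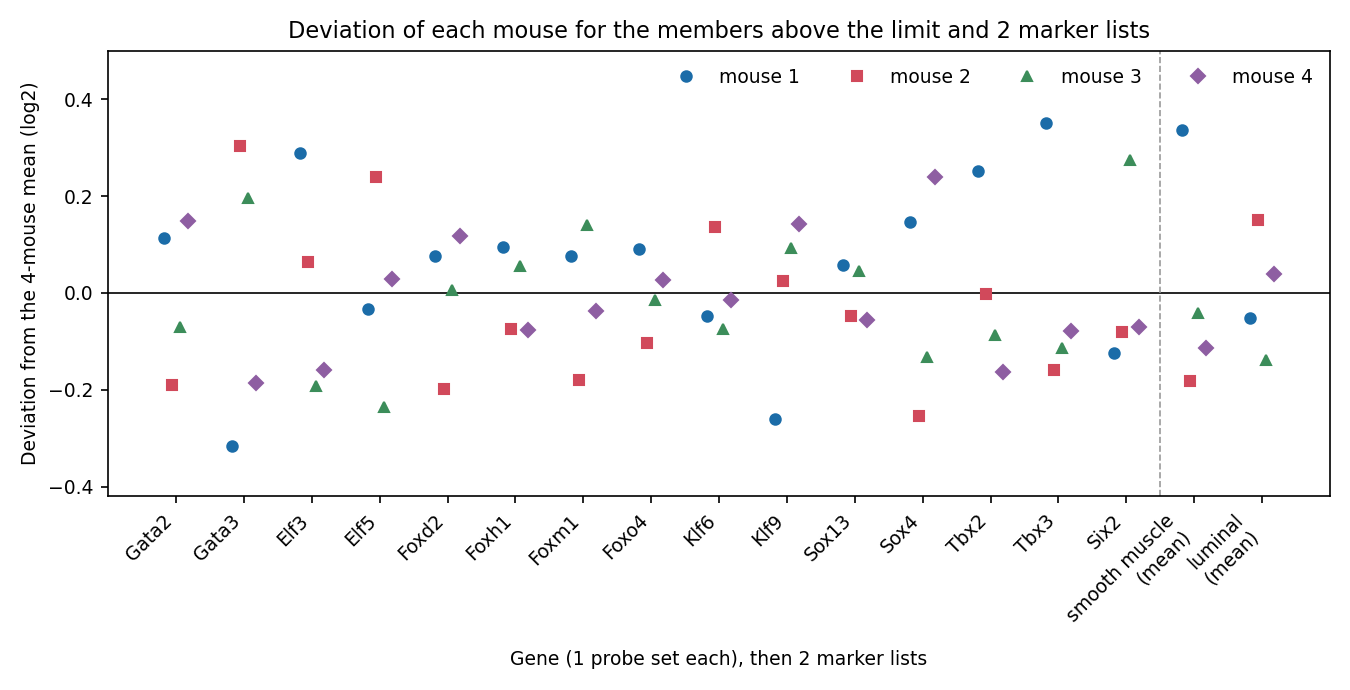
The deviation of each mouse from the 4-mouse mean (log2) is shown for the 15 probe sets above the background range, and to the right of the dashed line as the mean of the smooth muscle and luminal probe sets above it. Tbx2, Tbx3, Elf3, Foxh1, Foxo4, Sox13 and the smooth muscle list are highest in mouse 1. Gata3, Elf5, Klf6 and the luminal list are highest in mouse 2.

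Over all 131 members the shift of any mouse was small. The median deviation was 0.02, -0.06, -0.02 and 0.03 in mice 1 to 4, against 0.01, -0.03, 0.01 and 0.01 over all probe sets. Mouse 4 was the highest for 49 members, or 37.4%, against 26.5% of all probe sets, and mouse 1 for 42, or 32.1%, against 25.8%. Mouse 2 was the lowest for 52 members, or 39.7%, against 36.7%. By the mean, the deviations were 0.02, -0.04, -0.01 and 0.03 for the members and 0.04, -0.08, 0.00 and 0.04 for the probe sets of other organs. The part of background signal in the members' shift was not tested.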

How the data were processed

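Total RNA of 4 seminal vesicles was measured on 1 array each. The deposited values are log2 values per probe set, made by the authors with RMA per the submitters' processing notes. The RMA version and the set of arrays it was run on are not given in the sources used. RMA sets arrays to a common distribution and shrinks differences of dim probe sets. With values from 1.47 to 13.2 the scale was taken as log2, and nothing was transformed further.

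The 66 control probe sets were left out of 12488, which left 12422. The platform's annotation gave a single gene for 10833 of these, several for 396 and none for 1193, and only single-gene probe sets were named. All 131 member probe sets matched RefSeq (GRCm38.p6) by gene ID. A gene was above the background range when any of its probe sets was. Some probe sets are marked by the maker as sharing sequence with other transcripts, among those above the range the ones of Foxm1 and Klf9, and these can read related transcripts. Margins over the limit were ordered between probe sets, but this order does not rank the genes by expression level.

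For the spread between mice, the variance over 4 arrays (3 residual degrees of freedom) was set against limma's prior variance, fitted robustly with mean signal as trend (8.06 degrees of freedom), by an upper-tail F test with Benjamini-Hochberg adjustment over 12422 probe sets. It was checked on simulated data. P-values describe these 4 samples, and their number limits the precision. The members and gene lists were chosen with earlier results of these data known. Any member could be named, with values in every mouse for those above the range, near the limit, most variable or known from the urogenital tract or epithelium. Alternatives covered array scaling, the limit, the combination of probe sets, the prior, filters and leaving out each mouse. The software was limma 3.58.1 in R 4.3.3, and matplotlib 3.10.9 in Python 3.11.15 for figures.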

Additional observations from a re-analysis of the deposited data

Results flagged for a closer look

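A probe set is listed here where the gap between 1 mouse and the nearest of the others was so large a part of the range over the 4 mice that it passed Dixon's critical value for 4 samples. This held for 16 of 131 member probe sets, or 12.2%, and for 5.09% of all probe sets, and chance flags about 1 in 20. The values are log2 values. Mouse 1 was set apart on the high side for Foxc2 (4.90 against 4.62 to 4.64), Tbx3 (7.31 against 6.80 to 6.88), Sox7 (5.39 against 5.30 to 5.31), Foxp1 (5.13 against 4.90 to 4.93) and Pax8 (5.04 against 4.69 to 4.73). Mouse 1 was set apart on the low side for Six4 (2.32 against 2.48 to 2.50) and Ets1 (4.41 against 4.63 to 4.66). Mouse 2 was set apart on the high side for Foxa1 (6.13 against 5.84 to 5.87). Mouse 2 was set apart on the low side for Sox15 (4.23 against 4.41 to 4.44). Mouse 3 was set apart on the high side for Sox11 (4.08 against 3.82 to 3.83), Foxd4 (3.51 against 3.32 to 3.34) and Six2 (7.17 against 6.77 to 6.83). Mouse 3 was set apart on the low side for Nkx2-3 (4.40 against 4.54 to 4.56) and Sox17 (5.13 against 5.30 to 5.31). Mouse 4 was set apart on the high side for Tbx15 (3.22 against 2.82 to 2.89) and Foxk2 (3.97 against 3.72 to 3.76). Mouse 1 was concerned in 7 cases, mouse 3 in 5, and mice 2 and 4 in 2 each. Tbx3 and Six2 were the only ones of the 16 above the background range, and none of the 16 was called by limma's variance test (lowest adjusted p of any member 0.726). The Foxc2, Sox17, Six4, Ets1, Foxp1, Foxk2, Sox11 and Tbx15 values are from 1 of several probe sets of the gene, and the others did not meet the criterion.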

How the results depend on the processing

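The number of members above the background range depended on the limit, as it did for all genes. It was 15 genes by the 90th percentile of probe sets of other organs, 40 by the 75th, 9 by the 95th and 47 by each array's median, against 24.9%, 49.0%, 16.6% and 55.4% of all genes. In probe sets these were 15, 46, 9 and 55. It was also 15 genes with the arrays quantile-normalized again and with the brightest probe set of a gene. A shift of the arrays to the same median gave 15 genes too, but it moves values and limit together and cannot change the count. Leaving out a mouse or requiring 3 of 4 arrays can only add members. Both gave 15 genes, since 0 member probe sets were over the limit on exactly 3 arrays. With all probe sets of a gene required the number was 10 genes, without Gata2, Foxm1, Klf9, Sox4 and Tbx2. Judged by its own probe set, 9 of the 15 members stayed above under the 10 alternatives of limit, scaling and arrays, and 6 were lost at the 95th percentile. Of these alternatives, only the 95th percentile and the repeated quantile normalization could remove a member. No member was called by limma under any of 10 alternatives to the variance test (lowest adjusted p 0.479). At an unadjusted p under 0.05 there were 2 members, and 0 to 7 under the alternatives. Over the 17 members whose mean exceeded the mean limit, the median deviation was 0.0756 in mouse 1 and -0.0566 in mouse 4, against 0.02 and 0.03 over all members. The cause was not tested. No paired analysis was possible because the samples form 1 group. The number of arrays and the nearness of many members to the background limit what these values can show.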
